A study of Mus musculus with 24 samples.

Results

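A set of 8 interferon-inducible genes, Rtp4, Apol9a, Apol9b, Lgals3bp, Shisa5, Ifi44, Ifi35 and Nmi, was followed in ID8 cells, a cancer line derived from mouse ovarian surface epithelium. The 8 genes were taken by symbol from a table of 24614 genes and had been picked because their counts in untreated cells were lower in Ifnar1 knockout clones than in controls. The untreated difference between clones and controls is therefore given as a description without a test, and tests are kept for the other comparisons. Trp53, a tumour suppressor, and Brca2, which acts in DNA repair, were knocked out in all of these cells, the controls included. Clone 1CF10 and clone 2CD7, each a single CRISPR clone without Ifnar1, were set against cells that had received an empty vector (EV) and against untransfected cells (WT). Every line was taken after 3 h of IFN beta (mouse interferon beta, 10000 IU/ml) and without treatment, with 3 libraries in each of the 8 resulting groups. Libraries within a group are described as technical replicates handled on a single date, so p-values measure technical spread and each clone stands for itself.

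Type I interferons bind a receptor built from Ifnar1 and Ifnar2, and the attached kinases Jak1 and Tyk2 then activate transcription factors. Stat2 and Irf9 belong to the complex that switches on genes through interferon-stimulated response elements (ISRE) in their promoters. Many cells keep this pathway weakly active without infection, through small amounts of constitutive interferon beta, and this tonic signalling is known to hold Irf9, Irf7 and many effector genes at a baseline level. Rtp4 encodes a chaperone that brings G protein-coupled receptors to the cell surface, and Apol9a and Apol9b encode lipid-binding proteins of the apolipoprotein L family. Lgals3bp encodes a secreted glycoprotein that binds galectin-3, and Shisa5, also called Scotin, encodes a membrane protein of the endoplasmic reticulum first known as a p53-induced gene. Ifi44 encodes an interferon-induced cytosolic protein with a role in antiviral defence. Ifi35 and Nmi encode partner proteins that bind each other, and Nmi also binds STAT proteins.

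RefSeq promoter windows on GRCm38.p6, from 250 bases before to 50 bases after a transcription start, were at hand for 7 of the 8 genes, and for Rtp4 none was. They were searched on both strands for an ISRE core (GAAA, any 2 bases, then GAAA), for the shorter site of interferon regulatory factors (AANNGAAA, contained in every ISRE core) and for a STAT site (TTCNNNGAA). The ISRE core was found in 3 of the 7 genes, Apol9a, Apol9b and Shisa5, against 3.99% of 27025 genes and 3.44% of 32851 windows of the same length. The shorter site was found in 7 of the 7 genes, against 26.7% of genes and 23.9% of windows. The STAT site was found in 2 of the 7 genes, Shisa5 and Ifi35, against 9.55% of genes and 8.3% of windows. A gene with more windows has more chances of a match. Shisa5 had 5, and its window at the start of the gene held none of these sites. Apol9a and Apol9b share their promoter stretch, so the counts of genes are not strictly comparable with the shares. A match is a description of the letters and was not tested as a binding site. The windows are shown 5′ to 3′ on the gene's strand, with the ISRE core in capitals where there is one and the shorter site in capitals otherwise. They are Apol9a at chr15:77411031-77411330 (minus strand), Shisa5 at chr9:109054616-109054915 (plus strand, the only one of its 5 windows with an ISRE core), Ifi44 at chr3:151749861-151750160 (minus), Ifi35 at chr11:101448162-101448461 (plus), Lgals3bp at chr11:118401910-118402209 (minus) and Nmi at chr2:51973159-51973458 (minus).
Apol9a: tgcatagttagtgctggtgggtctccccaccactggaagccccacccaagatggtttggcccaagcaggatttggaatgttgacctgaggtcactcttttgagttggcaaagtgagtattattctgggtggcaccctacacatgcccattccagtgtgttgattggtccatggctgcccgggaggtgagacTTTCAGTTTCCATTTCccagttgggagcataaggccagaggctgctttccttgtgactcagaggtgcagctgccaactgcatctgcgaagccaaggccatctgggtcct
Shisa5: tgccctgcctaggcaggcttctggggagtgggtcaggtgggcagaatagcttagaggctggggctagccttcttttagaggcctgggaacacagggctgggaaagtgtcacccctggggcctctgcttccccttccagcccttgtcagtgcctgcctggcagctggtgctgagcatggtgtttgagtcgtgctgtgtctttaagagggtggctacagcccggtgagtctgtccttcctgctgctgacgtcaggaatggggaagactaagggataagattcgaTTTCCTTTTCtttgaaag
Ifi44: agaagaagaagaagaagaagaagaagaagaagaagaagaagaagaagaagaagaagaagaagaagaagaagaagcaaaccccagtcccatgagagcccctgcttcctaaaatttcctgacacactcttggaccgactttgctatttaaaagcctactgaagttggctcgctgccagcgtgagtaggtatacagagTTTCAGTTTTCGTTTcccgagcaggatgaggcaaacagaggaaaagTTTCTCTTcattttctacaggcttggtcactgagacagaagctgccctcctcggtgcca
Ifi35: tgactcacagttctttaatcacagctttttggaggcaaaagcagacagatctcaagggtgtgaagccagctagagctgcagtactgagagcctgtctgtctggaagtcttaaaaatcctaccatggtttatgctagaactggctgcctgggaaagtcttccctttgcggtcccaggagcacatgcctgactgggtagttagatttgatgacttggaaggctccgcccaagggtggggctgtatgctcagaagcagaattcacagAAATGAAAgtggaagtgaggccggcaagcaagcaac
Lgals3bp: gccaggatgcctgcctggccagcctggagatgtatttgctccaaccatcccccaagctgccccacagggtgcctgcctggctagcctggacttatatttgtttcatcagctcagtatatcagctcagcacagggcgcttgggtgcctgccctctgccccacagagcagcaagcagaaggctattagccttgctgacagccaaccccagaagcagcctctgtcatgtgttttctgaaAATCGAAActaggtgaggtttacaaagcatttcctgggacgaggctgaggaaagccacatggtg
Nmi: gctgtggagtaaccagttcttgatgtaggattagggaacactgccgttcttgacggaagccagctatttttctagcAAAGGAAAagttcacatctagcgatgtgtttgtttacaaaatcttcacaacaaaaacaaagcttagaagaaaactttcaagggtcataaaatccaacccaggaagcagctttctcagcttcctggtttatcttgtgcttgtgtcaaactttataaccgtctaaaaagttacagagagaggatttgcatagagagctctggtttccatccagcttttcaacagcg
Positions below count the start site as 1 and the base before it as -1. The Apol9a window carries a pair of overlapping ISRE cores, TTTCAGTTTC and TTTCCATTTC, that begin at -59 and -53. A window of Apol9b at chr15:77728871-77729170 (plus strand) was identical to it at 273 of 273 aligned bases, with the same pair of cores. The ISRE core of Shisa5 begins at 33, with a STAT site at 40. In Ifi44 the shorter site occurred 3 times, beginning at -55, -48 and -9. It began at -14 in Lgals3bp, at -174 in Nmi and at 15 in Ifi35, where a STAT site began at 8.

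The libraries held 1972192 to 3097331 unique molecular identifiers (UMIs), each counting an RNA molecule captured at its 3′ end, with 15685 to 16951 genes detected. Levels are given as CPM, the UMIs of a gene scaled to a library total of 1000000, and since the tags come from the 3′ end they are not scaled by gene length. Ifnar1 averaged 11.4 ± 1.3 CPM in treated 1CF10, 8.90 ± 2.62 in untreated 1CF10, 7.57 ± 1.02 in treated 2CD7 and 7.39 ± 2.71 in untreated 2CD7, against 11.1 ± 1.8 in treated EV, 11.9 ± 1.0 in untreated EV, 14.7 ± 1.7 in treated WT and 11.5 ± 4.5 in untreated WT (SD, n = 3). Tags at the 3′ end need not cover an edited site, so this level does not check the knockout. Of the markers of ovarian surface cells, Krt8, Krt18, Krt19, Wt1 and Msln had at least 125 CPM in every library, while Krt7 had 21 and Cdh1 12 UMIs over all 24 libraries. Of 11 leukocyte markers 5 had a row, and Cd14 held 896 of their 905 UMIs. Their summed level was 9.92 to 20.9 CPM in treated clones, 6.91 to 19.3 in untreated clones, 11.1 to 16.3 in treated controls and 14.1 to 20.3 in untreated controls. Endothelial markers had 19 UMIs in all.

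Untreated control libraries differed among themselves in the 8 genes. Library 2 of untreated WT had the highest level of the 3 WT libraries for 7 of the 8 genes, all but Ifi44, and for 51 of 62 other interferon-induced effector genes. Library 3 of untreated EV had the highest level of the 3 EV libraries for 7 of the 8 genes, all but Nmi, and for 51 of the 62 effectors. The summed level of the 8 genes was 189.7, 180.4 and 172 CPM in untreated 1CF10 and 139, 150.2 and 137 in untreated 2CD7, against 256, 248 and 339.6 in untreated EV and 198, 328 and 222 in untreated WT. The clones' libraries lay below every control library, and the gap was narrow between the highest 1CF10 library and the lowest WT library. The effector sum ran in parallel, with 908, 865 and 882 CPM in 1CF10 and 805, 816 and 837 in 2CD7, against 1373, 1398 and 1734 in EV and 1083, 1793 and 1228 in WT. Library 2 of untreated WT was also the smallest library, with 1972192 UMIs. The part of depth in its level was not tested, and results that rest on these libraries are given with and without them.

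**Figure D1:**
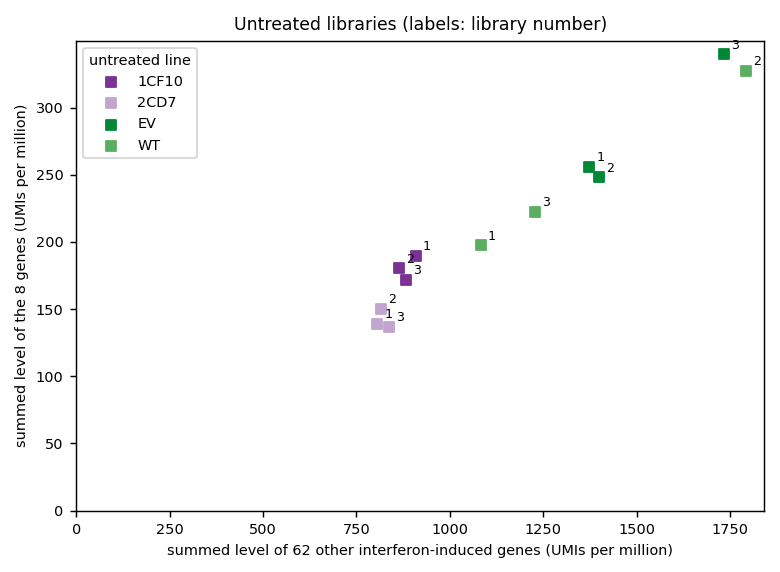
Summed level of the 8 genes (vertical axis, CPM) against that of 62 other interferon-induced effector genes (horizontal axis, CPM) in the 12 untreated libraries, coloured by line and numbered by library. The clones sit at 137 to 189.7 CPM on the vertical axis and the controls at 198 to 339.6, with library 3 of EV and library 2 of WT at the top.

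Rtp4 (ENSMUSG00000033355, chr16:23520291-23614222, plus strand of GRCm38, last exon 23612881 to 23614222) was close to undetected in the clones with or without IFN beta. Untreated, it had 3.90, 2.14 and 2.91 CPM in 1CF10 and 3.27, 0.787 and 0.789 CPM in 2CD7, against 17.3, 21.9 and 37.4 CPM in EV and 6.71, 34.0 and 11 CPM in WT. Every clone library lay below every control library. The untreated mean was 8.56-fold lower in 1CF10 than in EV, 5.78-fold lower in 1CF10 than in WT, 15.8-fold lower in 2CD7 than in EV and 10.7-fold lower in 2CD7 than in WT. The fitted untreated difference, clones minus controls, was -3.19 ± 0.47 on the log2 scale (SE), and -2.59 ± 0.27 without the high libraries of EV and WT. After IFN beta, Rtp4 had 3.01, 3.33 and 0.760 CPM in 1CF10 and 1.30, 4.25 and 1.81 CPM in 2CD7, against 279.8, 241 and 255 CPM in EV and 289.5, 251 and 289.5 CPM in WT. The treated controls lay far above every other library, and the treated and untreated clone libraries overlapped. The clone counts were 2 to 12 UMIs a library.

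**Figure D2:**
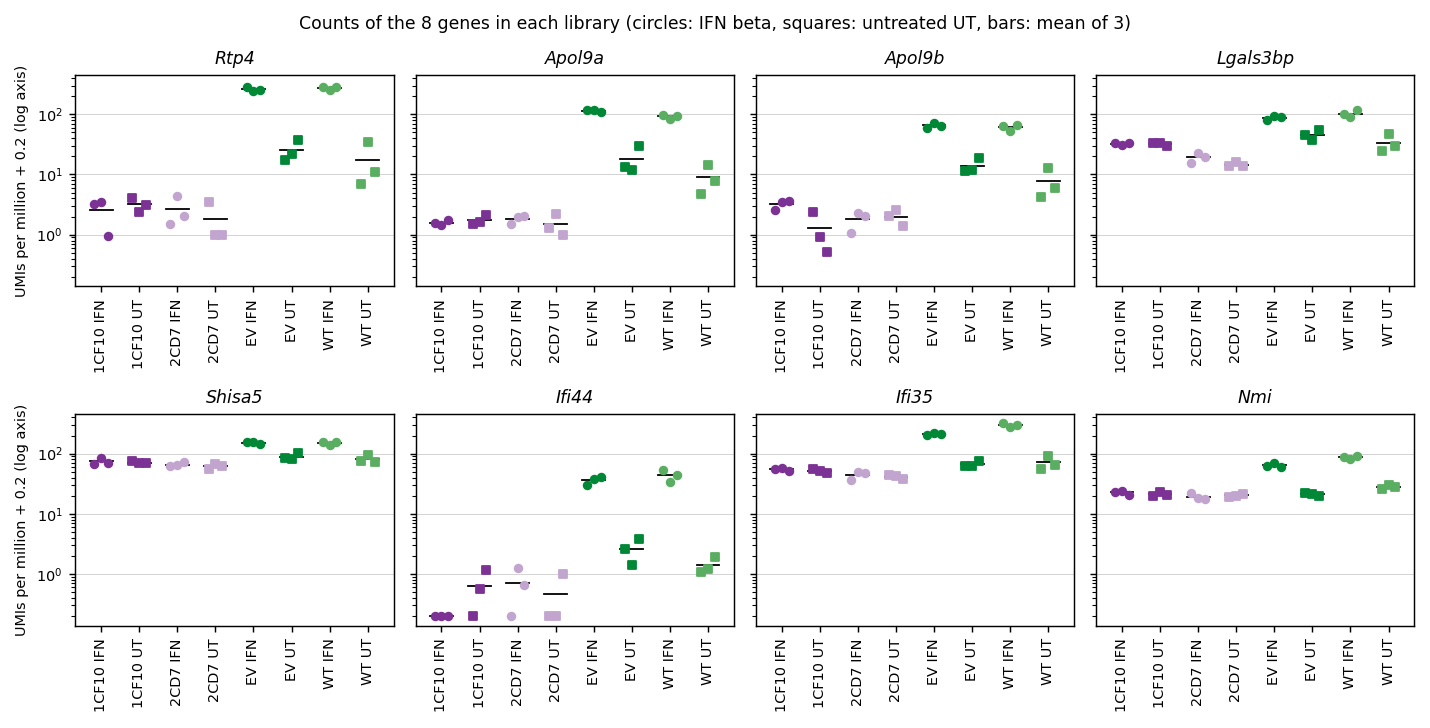
Level of each of the 8 genes in each library, as CPM plus 0.2 on a log axis, for treated (circles) and untreated (squares) libraries of 1CF10, 2CD7, EV and WT; bars mark the mean of 3 libraries. Treated controls stand above all other groups in every panel, and in Rtp4, Apol9a and Apol9b the untreated controls also stand above all clone libraries.

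Apol9a and Apol9b, lipid-binding paralogs on chromosome 15, were likewise low in both clones and highest in treated controls. Apol9a (ENSMUSG00000057346, chr15:77403789-77411135, minus strand) had 1.30, 1.43 and 1.94 CPM in untreated 1CF10 and 1.09, 1.97 and 0.789 CPM in untreated 2CD7, against 13.2, 11.8 and 29.3 CPM in untreated EV and 4.47, 14.2 and 7.57 CPM in untreated WT. Apol9b (ENSMUSG00000068246, chr15:77729039-77736382, plus strand) had 2.17, 0.715 and 0.323 CPM in untreated 1CF10 and 1.82, 2.36 and 1.18 CPM in untreated 2CD7, against 11.2, 11.8 and 18.3 CPM in untreated EV and 4.02, 12.7 and 5.85 CPM in untreated WT. For each gene all 6 clone libraries lay below all 6 control libraries, and the WT libraries reached lower than the EV libraries. The untreated means were 5.62- to 14.1-fold lower in a clone than in a control for Apol9a and 4.21- to 12.9-fold lower for Apol9b, over the 4 pairs of a clone with a control. The fitted untreated difference, clones minus controls, was -3.09 ± 0.31 for Apol9a and -2.88 ± 0.30 for Apol9b (log2, SE), and -2.61 ± 0.28 and -2.50 ± 0.32 without the high libraries of EV and WT. After IFN beta, Apol9a had 1.34, 1.25 and 1.52 CPM in 1CF10 and 1.30, 1.77 and 1.81 CPM in 2CD7, against 117, 116 and 111 CPM in EV and 97.6, 83.8 and 94.0 CPM in WT. Treated Apol9b had 2.34, 3.33 and 3.42 CPM in 1CF10 and 0.865, 2.13 and 1.81 CPM in 2CD7, against 58.0, 72.4 and 64.9 CPM in EV and 63.1, 53.5 and 65.5 CPM in WT. The transcripts of these paralogs differ at 9 of their last 500 bases, and 15% of the 101-base windows there are shared, so the split of reads between them is uncertain. No window of that length in the last 500 bases of the other 6 genes was shared with another gene.

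Ifi44 (ENSMUSG00000028037, chr3:151730922-151749960, minus strand) had the fewest counts of the 8 genes. It passed the filter on low counts through the treated controls alone. Untreated, it had 0, 1 and 3 UMIs in 1CF10 and 0, 0 and 2 UMIs in 2CD7, against 6, 3 and 9 UMIs in EV and 2, 2 and 5 UMIs in WT. The 2CD7 libraries lay below both controls, and 1CF10 overlapped WT. The untreated level in 1CF10 was 4.98-fold lower than in EV (95% exact counting interval 1.64 to 20.2) and 2.59-fold lower than in WT (0.724 to 11.5). In 2CD7, with 2 UMIs in all, it was 9.5-fold lower than in EV (2.27 to 84.4) and 4.95-fold lower than in WT (1.02 to 47.1). After IFN beta, 1CF10 had 0 UMIs in all 3 libraries and 2CD7 had 0, 3 and 1, against 72, 103 and 94 UMIs in EV and 139, 98 and 109 UMIs in WT. By the 95% exact counting interval, treated 1CF10 was at least 77.1-fold lower than treated EV and at least 94.0-fold lower than treated WT. Taking the floor as 3 UMIs in the whole group gave 95.4-fold and 116-fold. Treated 2CD7, with 4 UMIs, was 65.5-fold lower than treated EV (25.3 to 242) and 79.7-fold lower than treated WT (30.8 to 294). UMI intervals and floors cover counting error only.

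Lgals3bp (ENSMUSG00000033880, chr11:118392751-118402092, minus strand) separated the clones from each other. Untreated, it had 32.9, 33.6 and 29.4 CPM in 1CF10 and 13.5, 15.7 and 13.4 CPM in 2CD7, against 44.6, 37.7 and 54.1 CPM in EV and 24.1, 47.2 and 29.6 CPM in WT. The 2CD7 libraries lay below all others, while the 1CF10 libraries lay below EV and overlapped WT. Its untreated mean was 1.05-fold lower in 1CF10 than in WT, so a low untreated level was not seen for this pair, against 2.37-fold lower in 2CD7 than in WT. Between the clones, untreated Lgals3bp was lower in 2CD7 than in 1CF10 (log2 difference -1.14 ± 0.19, SE, adjusted p = 1.29e-05). After IFN beta it had 33.5, 31.2 and 32.7 CPM in 1CF10 and 15.6, 22.7 and 19.5 CPM in 2CD7, against 80.0, 92.0 and 91.4 CPM in EV and 101, 89.7 and 118 CPM in WT. Treated controls lay above all clone libraries, and 2CD7 again lay lowest.

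Of the 8 genes, Lgals3bp alone passed the test between untreated 2CD7 and untreated 1CF10, where 13.4% of 11698 tested genes did. Each adjusted p is from the quasi-likelihood F test of edgeR with Benjamini-Hochberg adjustment over all tested genes, and a gene was called at an adjusted p below 0.05. For the other 7 genes the difference, 2CD7 minus 1CF10, ranged from -0.79 ± 1.16 for Ifi44 to 0.87 ± 0.66 for Apol9b (log2, SE), which at these counts does not show that the clones are alike. The difference for Ifi35 was -0.27 ± 0.13 (adjusted p = 0.203).

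Shisa5 (ENSMUSG00000025647, chr9:109038565-109057777, plus strand) was well expressed in every group and differed little between untreated groups. Untreated, it had 75.3, 69.0 and 68.4 CPM in 1CF10 and 56.0, 67.7 and 61.5 CPM in 2CD7, against 83.9, 81.1 and 102 CPM in EV and 75.6, 96.3 and 73.6 CPM in WT. The groups did not overlap in 3 of 4 pairs, and 1CF10 overlapped WT. The untreated mean was 1.15- to 1.44-fold lower in a clone than in a control over the 4 pairs. After IFN beta it had 66.6, 85.7 and 70.0 CPM in 1CF10 and 61, 63.4 and 71.7 CPM in 2CD7, against 156, 158 and 143 CPM in EV and 157, 141 and 157 CPM in WT. Treated controls lay above every other library by a clear gap.

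Ifi35 and Nmi, whose proteins bind each other, differed from each other in untreated cells. Ifi35 (ENSMUSG00000010358, chr11:101448407-101458698, plus strand) had 54.6, 50.7 and 47.1 CPM in untreated 1CF10 and 44.7, 42.1 and 37.1 CPM in untreated 2CD7, against 61.4, 61.7 and 75.7 CPM in untreated EV and 56.3, 92.3 and 65.0 CPM in untreated WT. All 6 clone libraries lay below all 6 control libraries, by a margin of less than 2 CPM between the nearest libraries of 1CF10 and WT. Nmi (ENSMUSG00000026946, chr2:51948487-51973494, minus strand) had 19.5, 22.5 and 20.7 CPM in untreated 1CF10 and 18.9, 19.7 and 21.3 CPM in untreated 2CD7, against 22.1, 21.1 and 19.5 CPM in untreated EV and 25.5, 29.9 and 28.2 CPM in untreated WT. The Nmi libraries of the clones lay below WT but overlapped EV, from which their means differed 1.00- and 1.05-fold. A low untreated level of Nmi in the clones thus held against WT and was not seen against EV. The fitted untreated difference, clones minus controls, was -0.59 ± 0.09 for Ifi35 and -0.26 ± 0.11 for Nmi (log2, SE). After IFN beta, Ifi35 had 55.3, 57.8 and 51.3 CPM in 1CF10 and 36.8, 49.3 and 47.6 CPM in 2CD7, against 206, 218 and 212 CPM in EV and 317, 278 and 303 CPM in WT. Treated Nmi had 23.1, 24.1 and 20.5 CPM in 1CF10 and 21.6, 18.1 and 17.2 CPM in 2CD7, against 61.7, 69.9 and 60.7 CPM in EV and 89.3, 80.3 and 92.4 CPM in WT. In both genes the treated WT libraries lay above the treated EV libraries.

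Across the whole table, 4.8% of tested genes were called lower and 2.28% higher in untreated clones than in untreated controls, and 0.239% were called lower in each of the 4 pairs of a clone with a control. The genes were chosen by this contrast, so nothing is read from the 7 of 8 called lower over the mean of the lines or the 4 of 8, Rtp4, Apol9a, Apol9b and Ifi35, called lower in each pair. Without the high libraries of EV and WT, the fitted differences were -0.67 ± 0.12 for Lgals3bp, against -0.88 ± 0.13 with them, -0.26 ± 0.08 for Shisa5, against -0.38 ± 0.08, and -0.44 ± 0.09 for Ifi35, against -0.59 ± 0.09. In these bulk libraries fewer cells with a transcript and less RNA per cell cannot be told apart.

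All 8 genes rose with IFN beta in EV and in WT, and none of the 8 was called in either clone. Ifi44 entered the test only through the treated controls, where it is high, so its rise had to be large and its values are a description. In EV, where 3.99% of tested genes were called higher, the log2 rise ran from 0.82 ± 0.10 for Shisa5 (adjusted p = 1.51e-09) to 3.38 ± 0.28 for Rtp4 (adjusted p = 9.56e-08) and was 3.89 ± 0.29 for Ifi44, with a median of 2.00 over the 8 genes and -0.01 over all genes. In WT, where 5.01% were called higher, it ran from 0.94 ± 0.10 for Shisa5 (adjusted p = 1.89e-11) to 4.13 ± 0.30 for Rtp4 (adjusted p = 1.48e-08) and was 5.10 ± 0.33 for Ifi44, with a median of 2.62 over the 8 genes and -0.02 over all genes. Rtp4 rose by 3.38 ± 0.28 in EV and by 4.13 ± 0.30 in WT, which is 10.1-fold and 16.1-fold on the mean CPM. Apol9a rose 6.34-fold in EV and 10.5-fold in WT, and Apol9b 4.73-fold and 8.08-fold. Ifi35 rose 3.2-fold in EV and 4.2-fold in WT, Nmi 3.07-fold and 3.13-fold, Lgals3bp 1.93-fold and 3.06-fold, and Shisa5 1.71-fold and 1.85-fold. For each gene the 3 treated libraries lay above the 3 untreated libraries of the same line, and the share of all tested genes that did so was not computed. The untreated control libraries in these tests were also used to choose the genes. Without the high untreated libraries all 8 genes were called higher in both lines, and the rise of Rtp4 was 3.76 ± 0.17 in EV and 4.96 ± 0.19 in WT. Leaving out libraries widens the rise of the genes that were highest in them, so these calls are no check of it.

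In the clones, 0% of tested genes were called in either direction in 1CF10 and 0% in 2CD7. With edgeR 485 genes in 1CF10 and 510 in 2CD7 had an unadjusted p below 0.05, DESeq2 called 0 genes with 223 and 249, and limma-voom called 0 with 505 and 515. Among the 8 genes, the unadjusted p of edgeR was below 0.05 for Apol9b in 1CF10 (log2 change 1.55 ± 0.58, with 24 UMIs treated and 8 untreated, adjusted p = 0.998) and Lgals3bp in 2CD7 (0.45 ± 0.21, adjusted p = 0.997). It was also below 0.05 for Ifi44 in 1CF10, which had 0 UMIs treated and 4 untreated. The log2 change of Shisa5 was 0.04 ± 0.11 in 1CF10 and 0.08 ± 0.11 in 2CD7, that of Ifi35 0.10 ± 0.13 and 0.11 ± 0.14, and that of Nmi 0.09 ± 0.15 and -0.08 ± 0.17 (SE). For Rtp4 it was -0.32 ± 0.98 in 1CF10 and 0.62 ± 1.13 in 2CD7, so at 2 to 12 UMIs a library a small response of this gene was not detectable.

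**Figure D3:**
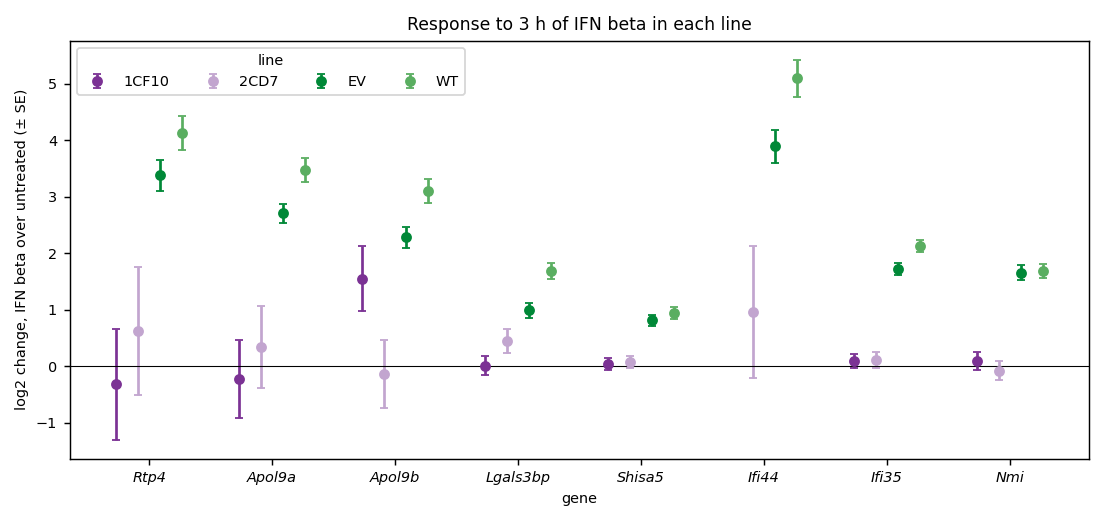
Log2 change with IFN beta over untreated (vertical axis, point ± SE) of each gene in 1CF10, 2CD7, EV and WT. Every EV and WT point lies above 0, between 0.82 and 5.10. The clones' points run from -0.32 for Rtp4 in 1CF10 to 1.55 for Apol9b in 1CF10, with wide errors for the low-count genes. Ifi44 in 1CF10, with 0 treated UMIs, is left out.

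The genes were picked by their untreated levels, but with earlier results of these data known, so the treated libraries are not fully independent. All 8 genes were lower in treated clones than in treated controls, where 12% of tested genes were called lower, and also in each of the 4 treated pairs, where 3.23% were. The log2 difference ran from -1.20 ± 0.07 for Shisa5 (adjusted p = 6.11e-22) to -6.80 ± 0.29 for Rtp4 (adjusted p = 2.95e-12), Ifi44 aside because its fitted value depends on how 0 UMIs are treated. It was -6.12 ± 0.20 for Apol9a, -4.87 ± 0.18 for Apol9b, -2.42 ± 0.08 for Ifi35, -1.99 ± 0.11 for Lgals3bp and -1.92 ± 0.09 for Nmi. The median over the 8 genes was -3.64, the same with Ifi44 at its bound, against 0.02 over all genes. Rtp4, Apol9a, Apol9b and Ifi44 passed the filter on low counts through control libraries, apart from 1 treated 2CD7 library for Rtp4, so only the other 4 genes are free of that choice. In each treated pair all 3 clone libraries lay below all 3 control libraries for all 8 genes. The share of all tested genes that separated in this way was not computed, so nothing is read from it.

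Ifi44 aside, the response itself was called smaller in the clones for each gene by a test of the difference of responses. That test includes the untreated values that chose the genes, and 3.68% of tested genes were called lower in it. The difference, clones minus controls, was -3.60 ± 0.91 on the log2 scale for Rtp4 (adjusted p = 0.0263), -3.03 ± 0.58 for Apol9a (adjusted p = 0.000318) and -1.98 ± 0.51 for Apol9b (adjusted p = 0.00827). It was -1.82 ± 0.12 for Ifi35 (adjusted p = 8.74e-18), -1.67 ± 0.15 for Nmi (adjusted p = 5.28e-14), -1.11 ± 0.17 for Lgals3bp (adjusted p = 2.69e-06) and -0.82 ± 0.11 for Shisa5 (adjusted p = 1.7e-08). The difference for Ifi44, admitted through the treated controls alone, is not used as support, and its call was lost without library 3 of untreated 1CF10 or library 3 of untreated 2CD7. Rtp4, Apol9a and Apol9b passed the filter on low counts through control libraries, apart from 1 treated 2CD7 library for Rtp4. Only Lgals3bp, Shisa5, Ifi35 and Nmi are free of that choice. The call for Rtp4 was lost without library 1 of untreated 1CF10 (-3.52) or library 1 of untreated 2CD7 (-3.09), and that for Apol9b without library 1 of untreated 1CF10 (-1.57). Without the high untreated control libraries all 8 were called, with -4.21 ± 0.47 for Rtp4. Leaving out those libraries widens the difference for the genes that were highest in them, so it is no check of the calls.

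The 2 controls also differed from each other. Untreated, 3 of the 8 genes were called between EV and WT, where 14.1% of tested genes were, and all 3 were higher in EV. The log2 difference, EV minus WT, was 1.09 ± 0.28 for Apol9a (adjusted p = 0.00504), 0.93 ± 0.28 for Apol9b (adjusted p = 0.0147) and 0.46 ± 0.16 for Lgals3bp (adjusted p = 0.0424). These calls rested on single libraries, since 0 of the 8 were called without library 3 of EV, 0 without library 3 of WT, 1, Apol9a, without library 1 of WT and 2 without library 1 of EV. Without library 3 of EV and library 2 of WT 4 were called, Rtp4 (1.10 ± 0.29), Apol9a (1.01 ± 0.29), Apol9b (1.18 ± 0.34) and Lgals3bp (0.60 ± 0.18). After IFN beta, 2 of the 8 genes were called, where 19.2% of tested genes were, and both were lower in EV. That count is near the share of all genes, so nothing is read from it. The 2 genes were Ifi35 (-0.50 ± 0.09, adjusted p = 3.51e-05) and Nmi (-0.44 ± 0.11, adjusted p = 0.00143). The response of EV minus that of WT was called by edgeR for 0 of the 8 genes, where 0.0427% of tested genes were, and DESeq2 and limma-voom also called 0. An unadjusted p of edgeR below 0.05 was seen for 4 of the 8, with adjusted p from 0.227 to 0.602. They were Lgals3bp (-0.69 ± 0.20), Apol9b (-0.83 ± 0.31), Apol9a (-0.77 ± 0.31) and Ifi35 (-0.41 ± 0.15). The share of all tested genes below that unadjusted p was not computed, so nothing is read from this count. Lgals3bp was called when no filter on low counts was used, and Lgals3bp (-0.97) and Ifi35 (-0.62) were called without library 2 of untreated WT.

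Set against the mean of treated EV and WT, the untreated level spanned a wide range among the 8 genes. In untreated clones it was 0.887 ± 1.093% of that mean for Ifi44, 0.859 ± 0.486% for Rtp4, 1.37 ± 0.45% for Apol9a and 2.27 ± 1.30% for Apol9b (SD, n = 6 libraries of both clones). In untreated controls it was 4.58 ± 2.67% for Ifi44, 7.99 ± 4.60% for Rtp4, 13 ± 8.3% for Apol9a and 16.9 ± 8.1% for Apol9b (SD, n = 6 libraries of both controls). These 4 genes thus had a small untreated level in controls and nearly none in the clones. Ifi35 stood at 18 ± 2.4% in untreated clones and 26.9 ± 5.2% in untreated controls, and Nmi at 27.0 ± 1.8% and 32.2 ± 5.5%. Lgals3bp stood at 24.2 ± 10.3% in untreated clones and 41.5 ± 11.8% in untreated controls, and Shisa5 at 43.7 ± 4.4% and 56.2 ± 7.5%. For Ifi35, Nmi and Shisa5 most of the untreated level of the controls was also present in the clones. For Lgals3bp the clones differed, with 33.5% in untreated 1CF10 and 14.9% in untreated 2CD7. Neighbours in this order, such as Apol9a and Apol9b, Ifi35 and Nmi, or Lgals3bp and Shisa5, overlapped in their control libraries. Over the 8 genes the median untreated level of the controls was 21.9% of the treated mean.

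**Figure D4:**
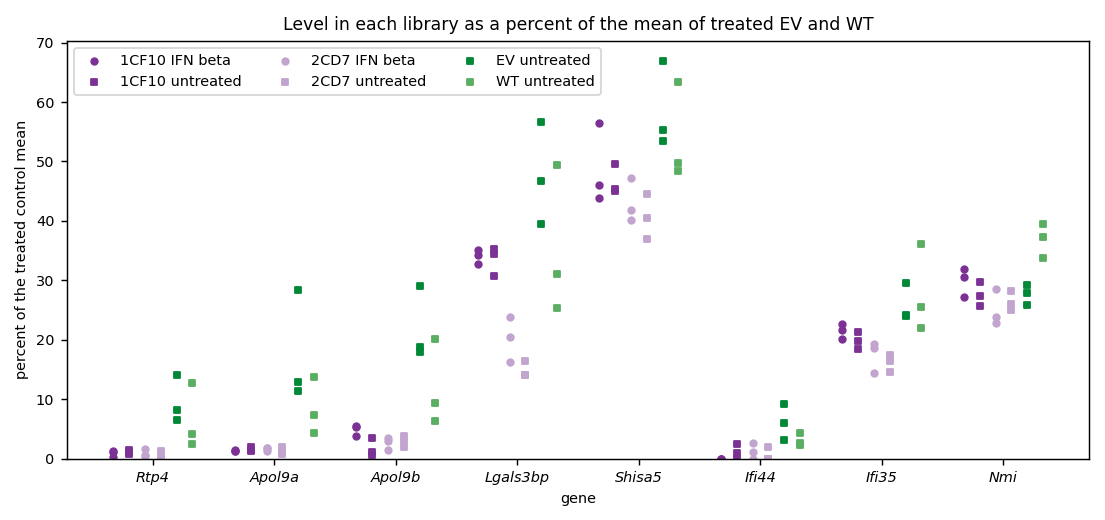
Level of each gene in each library as a percent of the mean of treated EV and WT (vertical axis), for treated and untreated clones and untreated controls. Rtp4, Apol9a, Apol9b and Ifi44 stay below 6% in every clone library, while Shisa5 lies between 36.9% and 67.0% in all libraries shown.

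Treated clones were also set beside untreated controls. The untreated values chose the genes and no response was called in the clones. Lower levels in treated clones thus restate that choice and are given as a description. For Rtp4, Apol9a and Apol9b all 6 treated clone libraries lay below all 6 untreated control libraries. Treated Rtp4 was at 0.760 to 4.25 CPM in the clones, against 6.71 to 37.4 CPM in untreated controls. For Ifi44, Shisa5 and Ifi35 5 of the 6 treated clone libraries lay below all untreated control libraries, for Lgals3bp 3 of 6 and for Nmi 2 of 6.

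Other genes of the pathway in untreated cells were taken from lists that were also drawn up with earlier results of these data known. Over all tested genes, 4.8% were called lower and 2.28% higher in untreated clones than in untreated controls. Of the receptor and its signal chain, Irf9 and Stat2 were lower in untreated clones than in untreated controls. Irf9 was at 3.17 ± 0.35 CPM in 1CF10 and 2.03 ± 0.49 in 2CD7, against 15.1 ± 1.9 in EV and 13.7 ± 7.6 in WT (SD, n = 3), a log2 difference of -2.46 ± 0.24 (SE, adjusted p = 2.91e-11). Stat2 differed by -0.88 ± 0.18 (adjusted p = 0.000375) but did not pass in 2CD7 against EV (adjusted p = 0.0537) or WT (adjusted p = 0.0528). Ifnar1 (-0.53 ± 0.19, adjusted p = 0.0713), Ifnar2 (0.00 ± 0.15), Jak1 (0.01 ± 0.08) and Tyk2 (-0.06 ± 0.20) did not pass the test. Of 12 tested regulatory and feedback genes 2 were lower, Isg15 (-3.22 ± 0.53, adjusted p = 0.000827), a ubiquitin-like modifier, and Irf7 (-3.15 ± 0.49, adjusted p = 0.00043), a transcription factor of interferon genes. Irf7 was called in each of the 4 pairs, and Isg15 in all but 2CD7 against WT (adjusted p = 0.0502). In the same list 1 was higher, the phosphatase gene Ptpn6 (1.09 ± 0.25, adjusted p = 0.00255), which passed in 2CD7 against both controls but not in 1CF10 against EV (adjusted p = 0.127) or WT (adjusted p = 0.333). Usp18, which removes Isg15 and blocks the receptor, did not pass (-1.82 ± 0.58, adjusted p = 0.0698). The type I interferon genes themselves had 10 UMIs in all 24 libraries over the 3 of 18 with a row, and Ifnb1 had 1, in untreated WT.

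Of 59 other interferon-induced effectors tested, 32 were lower in untreated clones than in untreated controls and 0 higher, against 4.8% and 2.28% of all tested genes. The median log2 difference was -0.995, or -0.91 with the 7 genes at 0 UMIs in a clone set to the floor, against -0.01 over all genes. In each of the 4 pairs of a clone with a control, 7 of the 59 were called lower, against 0.239% of all tested genes. They were Bst2, Ifitm3, Ifi27, Ifi27l2a, Parp9, Gbp3 and Lgals9. Gbp3, a guanylate-binding protein, was among them (-3.94 ± 0.79, adjusted p = 0.00347). The antiviral oligoadenylate synthetase genes Oas1a and Oas2 were also called over the mean of the lines, with 3 and 0 UMIs in untreated 1CF10 and 1 and 0 in untreated 2CD7, against 100 and 13 in untreated EV and 19 and 2 in untreated WT. Against WT, Oas2 did not pass in 1CF10 (adjusted p = 0.272) or 2CD7 (adjusted p = 0.451), nor did Oas1a in 2CD7 (adjusted p = 0.0519). Untreated Oas1a was itself higher in EV than in WT (2.31 ± 0.44, adjusted p = 0.000311). Without the high library of each control line 21 of the 59 were called lower, and 23 to 35 when any single untreated library was left out. After IFN beta 55 of the 59 were called higher in EV and 58 in WT, against 3.99% and 5.01% of all tested genes, and 0 in either clone. Effectors with few untreated counts, such as Oas2, entered the test through treated controls, so their rise had to be large. How many of the 59 did so was not counted, and these counts are a description. Of 12 nucleic acid sensors 4 were lower in untreated clones and 0 higher, Ddx58 (-0.83 ± 0.13, adjusted p = 7.02e-06), Ifih1 (-1.31 ± 0.20, adjusted p = 5.21e-05), like Ddx58 a sensor of viral RNA, Ifi203 (-1.19 ± 0.28, adjusted p = 0.00285) and Ifi204 (-0.97 ± 0.15, adjusted p = 2.71e-06). Of these, 3 were called lower in each of the 4 pairs, and Ifi203 did not pass in 1CF10. Of 16 genes of class I antigen presentation 2 were lower and 0 higher, B2m (-0.38 ± 0.05, adjusted p = 5.69e-08), the light chain of class I molecules, and the heavy chain gene H2-D1 (-0.26 ± 0.06, adjusted p = 0.00438). B2m was called in each of the 4 pairs, while H2-D1 did not pass in 2CD7 against EV (-0.18, adjusted p = 0.24) or WT (-0.15, adjusted p = 0.436). Of the 4 receptor genes of other interferons 0 were called by edgeR in either direction.

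Relatives of the 8 genes were compared in the same way, where 4.8% of all tested genes were called lower and 2.28% higher. Of 6 tested galectin genes 2 were lower, Lgals9 (-0.49 ± 0.08, adjusted p = 0.000111), which is also in the effector list, and Lgals7 (-1.93 ± 0.11, adjusted p = 3.54e-17). The Lgals7 difference was that of a single clone, with 6.59 ± 0.46 CPM in untreated 1CF10 and 113 ± 9.0 in untreated 2CD7, against 77.2 ± 16 in untreated EV and 136 ± 20 in untreated WT (SD, n = 3). Of 10 apolipoprotein L relatives 1 was tested, Apol7a (-1.32 ± 0.52, adjusted p = 0.119), and of 10 Shisa relatives 1 was tested, Shisa4 (-0.03 ± 0.08, adjusted p = 0.913). Ddx58, Apol7a and Shisa4 are named because they complete a small count, chosen after their values were seen. None of 3 listed receptor-transporting relatives of Rtp4 and no listed relative of Ifi44 had a row in the table used here. Of 6 tested markers of ovarian surface cells 0 were lower and 1 was higher in untreated clones, Krt19 (0.18 ± 0.04, adjusted p = 0.00289). Its direction turned with the control, since in 1CF10 it was higher than in EV (0.42 ± 0.06, adjusted p = 6.31e-07) and lower than in WT (-0.31 ± 0.06, adjusted p = 8.75e-05).

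**Figure D5:**
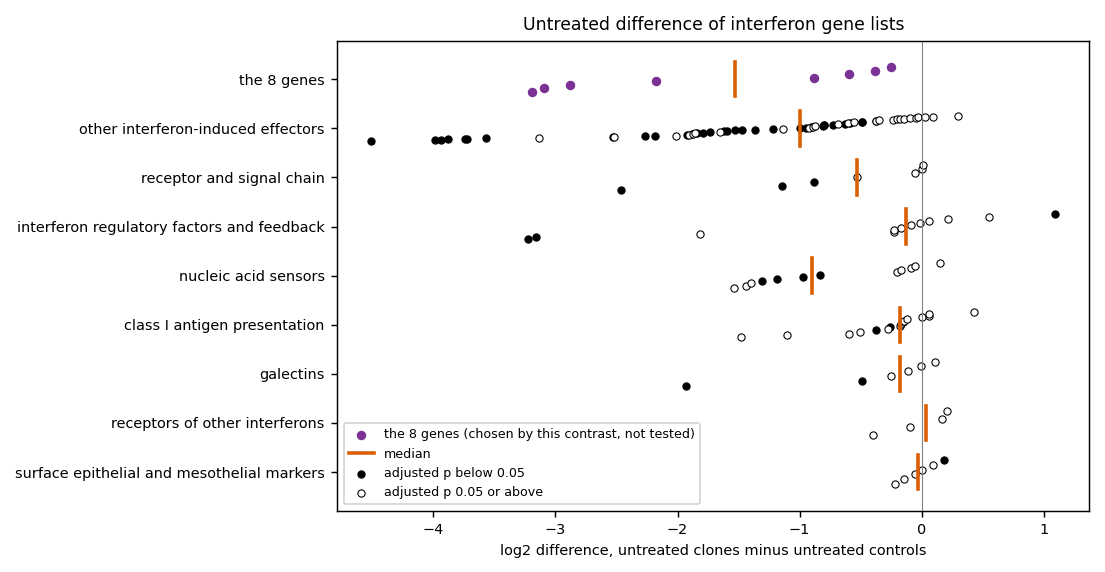
Log2 difference of untreated clones minus untreated controls (horizontal axis) for the 8 genes and for the tested members of 8 lists, filled where the adjusted p was below 0.05, with orange bars at the medians. The effectors centre on -0.995 and the receptors of other interferons near 0; the 8 genes were chosen by this contrast.

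Over the 8 group means of log2 CPM, pairs of the 8 genes correlated with r from 0.886 (Lgals3bp with Nmi) to 0.997 (Rtp4 with Apol9a), a description over groups that share the same treated and untreated lines. The tested genes most like the mean profile of the 8, at an average log2 CPM of at least 3, were Gbp3 (r = 0.999), Oasl2 (0.997), B2m (0.996), Gvin1 (0.996) and Trim56 (0.994). The ubiquitin ligase gene Trim56 had 41.7 ± 10.3 CPM in treated 1CF10, 37.1 ± 2.5 in untreated 1CF10, 40.0 ± 6.3 in treated 2CD7 and 37.4 ± 6.1 in untreated 2CD7, against 176 ± 25 in treated EV, 67.3 ± 1.9 in untreated EV, 159 ± 19 in treated WT and 52.4 ± 8.7 in untreated WT (SD, n = 3). B2m had 484 ± 29 CPM in treated 1CF10, 502 ± 25 in untreated 1CF10, 464 ± 36 in treated 2CD7 and 456 ± 22 in untreated 2CD7, against 1072 ± 42 in treated EV, 662 ± 36 in untreated EV, 1172 ± 81 in treated WT and 570 ± 57 in untreated WT. In both genes the clone means, with or without IFN beta, lay below the untreated control means. Both were picked for their likeness to the profile of the 8 genes, so this restates that choice.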

How the data were processed

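Poly(A) 3′ ends were counted in 24 libraries of ID8 cells, and the deposited values are whole-number counts per gene in 1 table; per the labels, each read carried a UMI. Per the submitters' processing notes the authors used cutadapt 3.0, R 3.6.2 and 4.1.2, edgeR 3.36.0 and limma 3.50.0 with GRCm38 and mm10; the aligner and the handling of reads that match several genes are not given in the sources used here. No count was normalized before deposit, as far as the whole numbers and unequal totals show. Groups follow the labels.

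Counts were fitted with edgeR 4.0.16 (R 4.3.3), using filterByExpr (at least 10 counts, total at least 15), TMM scaling, 8 group means over all 24 libraries, and the robust quasi-likelihood F test with Benjamini-Hochberg adjustment over 11698 genes. SE is the log2 difference divided by the square root of F. CPM used library totals. All 8 genes passed the filter, Ifi44 only through treated controls. The fit was tested on simulated data. DESeq2 1.42.0, limma-voom 3.58.1, other scaling and filters, a replicate block and leaving out libraries were alternatives. Leaving out library 2 of untreated WT together with library 3 of untreated EV was added after seeing the data.

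The members and all gene lists were chosen with earlier results of these data known. Named genes are the 8, the receptor and signal chain (1 gene of it is not reported here), Irf7, Usp18 and Ifnb1, up to 3 called genes of each other list with the largest untreated difference, and the 5 genes most alike in profile. Promoters are from RefSeq (GRCm38.p6) and gene coordinates from the GRCm38 annotation. Replicate pairs differed by more than sampling noise, with a chi-square per gene of 1.42 to 4.90.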

Additional observations from a re-analysis of the deposited data

Results flagged for a closer look

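Ifi44 aside, the response to IFN beta was called smaller in the clones than in the controls for each gene. It was tested by the difference itself with edgeR, where 3.68% of tested genes were called lower. That test includes the untreated values by which the genes were chosen, and 6 to 8 of the 8 genes were called when single libraries were left out. The difference, clones minus controls on the log2 scale with its SE, was -3.60 ± 0.91 for Rtp4, -3.03 ± 0.58 for Apol9a, -1.98 ± 0.51 for Apol9b, -1.11 ± 0.17 for Lgals3bp, -0.82 ± 0.11 for Shisa5, -1.82 ± 0.12 for Ifi35 and -1.67 ± 0.15 for Nmi. For Ifi44 the fitted value was -5.73 ± 1.33, which depends on the prior count because treated 1CF10 had 0 UMIs. Ifi44 passed the filter on low counts only through treated controls, so its difference is a description. Rtp4, Apol9a and Apol9b passed it through control libraries, apart from 1 treated 2CD7 library for Rtp4.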

How the results depend on the processing

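No called value changed sign under any alternative tried. Of the 8 genes, the count called stayed at 8 for the responses in EV and in WT and for treated clones, at 0 for the responses in both clones, at 2 for treated EV against treated WT and at 1 for untreated 2CD7 against untreated 1CF10 when any single library of the comparison was left out. It ranged from 6 to 8 for the difference of responses between clones and controls and from 0 to 2 for that between EV and WT, where it was 1 with no filter on low counts, Lgals3bp. For untreated EV against untreated WT it was 3, ranged from 0 to 4 with a library left out, and was 2 with DESeq2, which did not call Lgals3bp. For treated EV against treated WT, limma-voom and no filter also called Apol9a. The count of other effectors lower in untreated clones was 32, ranged from 23 to 35 with a library left out and was 21 without library 2 of untreated WT and library 3 of untreated EV. The cause was not tested. The median untreated percent ranged from 19.8% to 23.3%.

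Replicate numbers did not meet the criterion for pairing, a correlation over 0.1 in every pair. Deviations of same-numbered libraries correlated with a mean r of 0.0192 (-0.153 to 0.151 over 84 pairs), and 14 of 24 libraries were closest to their own number, a hint from the data and not the design. With the number as a replicate block, the same counts of the 8 genes were called, such as 8 for both control responses, and 29 effectors were lower. Depth limits Rtp4, Apol9a, Apol9b and Ifi44 in the clones, at 12 UMIs a library or fewer for Rtp4, and a small response there was not detectable.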
